A study of Mus musculus with 9 samples.

Results

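Regulatory T cell and checkpoint genes were followed in the lungs of mice challenged with IL-33, through 10 named genes of the 34638 in the deposited table: *Foxp3*, *Ikzf2*, *Ctla4*, *Tigit*, *Pdcd1*, *Cd274*, *Pdcd1lg2*, *Tnfrsf4*, *Tnfsf4* and *Tnfrsf18*. They were chosen by name, with earlier results of these data known. All 10 were counted in every mouse and passed the filter on low counts. RNA-seq of lung was done in 9 wild-type C57BL/6 mice, 3 per group. Control mice had PBS by the intratracheal route, IL-33 mice had 0.5 µg of recombinant mouse IL-33 at each challenge on days 0 to 3, and IL-33+LM8 mice had in addition the MyD88 inhibitor LM8, dosed at 10 mg/kg by the intraperitoneal route ahead of the IL-33 challenge. The study's methods describe the control and IL-33 mice as young adult females; the sex and age of the IL-33+LM8 mice, and whether any other group had the vehicle of LM8, are not given in the sources used here. Each library came from whole lung, so the values are not values of sorted T cells.

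Regulatory T cells are CD4+ T cells that restrain immune responses. The transcription factor FOXP3 defines them, and Helios, encoded by *Ikzf2*, is found in many of them. They carry CTLA-4, GITR and OX40 at high levels, but activated effector T cells and, for some of these receptors, group 2 innate lymphoid cells can carry them as well. Checkpoint receptors such as CTLA-4, PD-1 and TIGIT dampen T cell activation when bound by ligands on antigen-presenting or tissue cells, whereas OX40 and GITR of the TNF receptor family deliver costimulatory signals. IL-33 is an epithelial alarmin whose receptor ST2, encoded by *Il1rl1*, signals through the adaptor MyD88 and is carried by group 2 innate lymphoid cells, Th2 cells and a subset of tissue regulatory T cells.

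The PD-1 ligands lie side by side on chromosome 19. They had the largest and the smallest log2 fold change with IL-33 of the 10 genes, the smallest close to that of *Ikzf2*. The 250 bases ahead of the start of each ligand gene are therefore shown. The sequences are those of RefSeq on GRCm38.p6, plus strand, chr19:29410669-29410918 for *Pdcd1lg2* and chr19:29367188-29367437 for *Cd274*. Capitals mark matches to 5 motifs searched on both strands. These were TTCNNNGAA for STAT factors in general, TTCNNNNGAA for STAT6 and GGGNNNNNCC for NF-kB. AGATAA was taken for GATA factors, and TGANTCA was taken for AP-1.
Pdcd1lg2: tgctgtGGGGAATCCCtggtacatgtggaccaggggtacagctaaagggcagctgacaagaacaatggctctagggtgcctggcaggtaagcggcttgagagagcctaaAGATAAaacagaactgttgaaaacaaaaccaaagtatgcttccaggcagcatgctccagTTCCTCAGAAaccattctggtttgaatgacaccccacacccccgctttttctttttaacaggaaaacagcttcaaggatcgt
Cd274: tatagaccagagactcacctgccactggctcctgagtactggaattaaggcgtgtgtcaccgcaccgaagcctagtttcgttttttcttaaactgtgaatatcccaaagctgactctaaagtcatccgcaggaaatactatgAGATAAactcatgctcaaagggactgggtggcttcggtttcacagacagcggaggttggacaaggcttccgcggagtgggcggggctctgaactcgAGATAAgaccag
The *Pdcd1lg2* window held 1 STAT6 match 82 to 73 bases ahead of the start, 1 NF-kB match 244 to 235 bases ahead and 1 GATA match 141 to 136 bases ahead, none of which overlapped another. The *Cd274* window held 2 GATA matches, at 108 to 103 and at 12 to 7 bases ahead of the start, and no match to the other motifs. Among 32851 mouse windows of the same length, 7.02% held the STAT motif, 5.85% the STAT6 motif, 6.75% the AP-1 motif, 45.8% the NF-kB motif and 9.99% the GATA motif. A window was found for 8 of the 10 genes. Elsewhere, 1 of the 2 *Foxp3* windows held a STAT match at 139 to 131 and a GATA match at 47 to 42 bases ahead of the start, *Tnfrsf18* held a STAT match at 99 to 91, and *Tigit* held a GATA match at 249 to 244. The windows of *Ctla4*, *Tnfrsf4* and *Pdcd1* held no match. A match describes letters only and is not evidence of binding.

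Total counts on genes were 61767006 to 73869252 in control mice, 53877663 to 66029783 in IL-33 mice and 59753648 to 90607218 in IL-33+LM8 mice. Levels are given in FPKM, which corrects a count for the length of the gene and the depth of the library, and log2 fold changes come from edgeR's quasi-likelihood test on counts, with standard errors (SE) and Benjamini-Hochberg adjusted p over all genes tested. A gene was called higher or lower where the adjusted p was under 0.05 and the log2 fold change was 1 or more in size. The comparison of IL-33 with control mice asks what the alarmin changed, and that of IL-33+LM8 with IL-33 mice asks what differed when the MyD88 inhibitor was given as well. Comparisons with IL-33 mice in common, or with control mice in common, are not independent. P-values measure the spread between the 3 mice of a group, and with 3 mice against 3 an exact permutation test cannot give a two-sided p under 0.1.

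All 10 genes rose with IL-33. Of 21519 genes tested, 9.94% were called higher and 5.83% lower in IL-33 mice, and all 3 IL-33 mice lay above all 3 control mice in 28.1% of genes and in all 10 members. The median log2 fold change of the 10 genes was 3.01, against -0.01 over all genes. Because the genes were chosen with earlier results known, this contrast and the shares set beside the members describe them. They are no test of enrichment. The increases were uneven: *Pdcd1lg2*, *Pdcd1* and *Tnfsf4* had log2 fold changes over 5, *Ctla4*, *Tigit* and *Foxp3* between 2.90 and 3.87, and *Tnfrsf4*, *Tnfrsf18*, *Ikzf2* and *Cd274* between 1.11 and 1.63. In IL-33+LM8 mice compared with IL-33 mice, *Pdcd1lg2*, *Ctla4* and *Foxp3* fell, against 3.48% of 21520 genes called lower and 1.32% called higher. A further 4 genes (*Ikzf2*, *Tigit*, *Pdcd1* and *Tnfrsf4*) had an adjusted p under 0.05 with a decrease smaller than the minimum, making 7 of 10 against 10.3% of all genes by adjusted p alone. That count was 4 with IL-33 replicate 3 left out, where *Foxp3*, *Tigit* and *Tnfrsf4* did not pass, and 4 to 7 over all mice left out in turn. The remaining 3, *Tnfrsf18*, *Tnfsf4* and *Cd274*, did not pass the test, and their groups overlapped, while in the other 7 all IL-33+LM8 mice lay below all IL-33 mice, as in 20.1% of genes tested. For *Tnfrsf18*, *Tnfsf4* and *Cd274* the SEs were 0.12, 0.40 and 0.21 on the log2 scale.

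**Figure D1:**
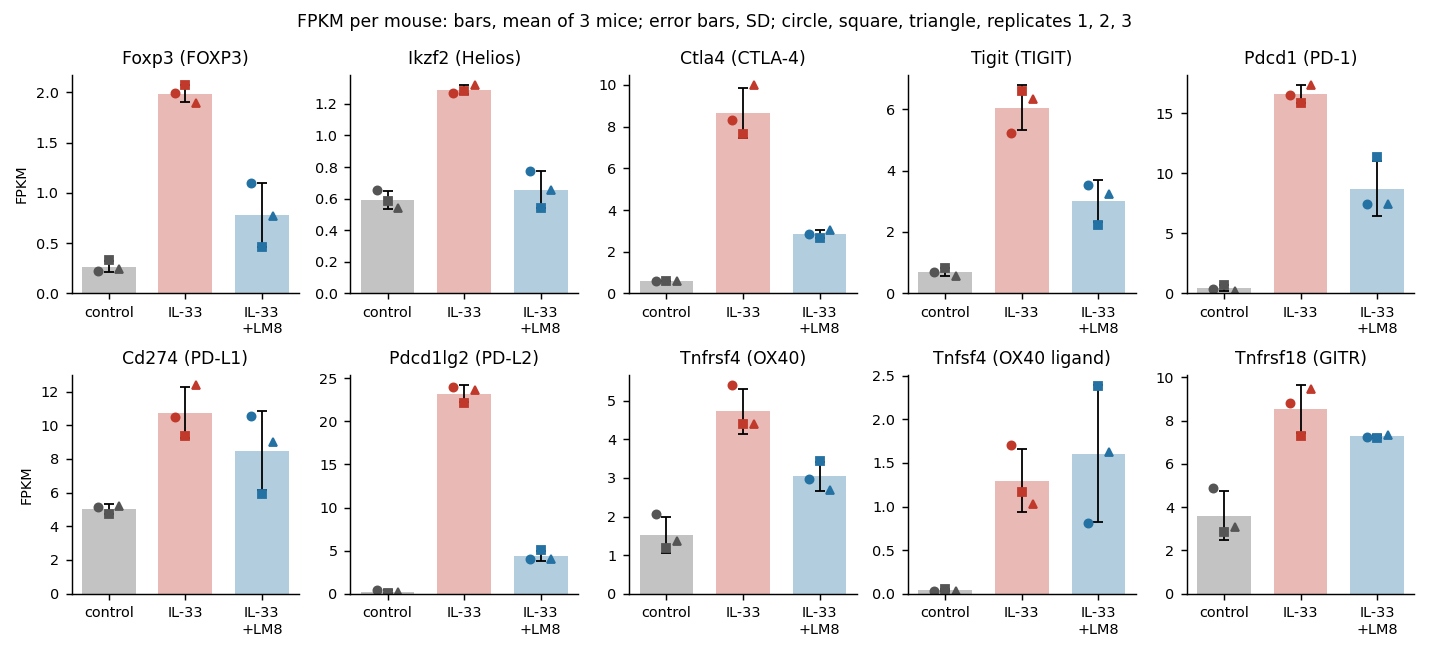
FPKM of the 10 genes in each of 9 mice (vertical axes, linear and separate per gene), with bars for the mean of 3 mice, error bars for the SD, and circle, square and triangle for replicates 1, 2 and 3. In every panel the 3 IL-33 mice lie above the 3 control mice, and in 7 of the 10 panels the IL-33+LM8 mice all lie below the IL-33 mice.

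*Foxp3* (ENSMUSG00000039521), the lineage-defining factor, stood at 0.226, 0.333 and 0.240 FPKM in control mice, at 1.99, 2.07 and 1.90 FPKM in IL-33 mice and at 1.10, 0.460 and 0.771 FPKM in IL-33+LM8 mice. The 3 groups did not overlap, and the IL-33+LM8 mice were the most spread. The means were 0.267 ± 0.058 FPKM in control and 1.99 ± 0.086 FPKM in IL-33 mice (SD, n = 3 each), a 7.45-fold rise with a log2 fold change of 2.90 (SE 0.19, edgeR, adjusted p = 3.5e-05). With LM8 the mean fell to 0.777 ± 0.320 FPKM (SD, n = 3), and the log2 fold change against IL-33 mice was -1.35 (SE 0.29, edgeR, adjusted p = 0.016). That call depended on single mice, since the adjusted p (edgeR) was 0.051 with IL-33 replicate 3 left out (-1.37) and 0.057 with IL-33+LM8 replicate 3 left out (-1.33).

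*Ikzf2* (ENSMUSG00000025997), encoding Helios, stood at 0.653, 0.584 and 0.543 FPKM in control mice, at 1.27, 1.28 and 1.32 FPKM in IL-33 mice and at 0.773, 0.542 and 0.656 FPKM in IL-33+LM8 mice. IL-33 mice stood apart from both other groups, which overlapped each other. The rise with IL-33 was 2.18-fold, with a log2 fold change of 1.13 (SE 0.11, edgeR, adjusted p = 0.00017). Against IL-33 mice the log2 fold change with LM8 was -0.96 (SE 0.14, edgeR, adjusted p = 0.0029), under the minimum, and it became -1.09 and was called without IL-33+LM8 replicate 1. *Ikzf2* was the only member without an adjusted p under 0.05 between IL-33+LM8 and control mice, where its log2 fold change was 0.18 (SE 0.16, edgeR, adjusted p = 0.47).

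*Ctla4* (ENSMUSG00000026011) encodes a receptor that competes with CD28 for CD80 and CD86. Its level was 0.600, 0.599 and 0.578 FPKM in control mice, 8.34, 7.66 and 10.0 FPKM in IL-33 mice and 2.83, 2.66 and 3.06 FPKM in IL-33+LM8 mice. The groups were well apart, each narrow compared with the distance between them. The rise with IL-33 was 14.6-fold, with a log2 fold change of 3.87 (SE 0.14, edgeR, adjusted p = 4e-06), above 98.8% of genes tested. With LM8 it fell by 1.59 on the log2 scale (SE 0.13, edgeR, adjusted p = 0.00036), and the range with each mouse left out was -1.68 to -1.47. The IL-33+LM8 mice were still 4.81-fold above control mice.

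*Tigit* (ENSMUSG00000071552), an inhibitory receptor for CD155 and related nectins, stood at 0.699, 0.825 and 0.557 FPKM in control mice, at 5.22, 6.60 and 6.34 FPKM in IL-33 mice and at 3.54, 2.23 and 3.25 FPKM in IL-33+LM8 mice. Again the groups did not overlap. The log2 fold change with IL-33 was 3.13 (SE 0.23, edgeR, adjusted p = 5.8e-05). With LM8 it was -0.999 against IL-33 mice (SE 0.21, edgeR, adjusted p = 0.017), just under the minimum in size. The gene was therefore called in some settings, among them those that left out IL-33 replicate 1 (-1.10), IL-33+LM8 replicate 1 (-1.12) or IL-33+LM8 replicate 3 (-1.04). In others its adjusted p (edgeR) was not under 0.05, among them those that left out IL-33 replicate 2 (0.053) or IL-33 replicate 3 (0.063).

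PD-1, encoded by *Pdcd1* (ENSMUSG00000026285), is an inhibitory receptor induced on T cells after activation. *Pdcd1* was at 0.376, 0.705 and 0.236 FPKM in control mice, at 16.6, 15.9 and 17.4 FPKM in IL-33 mice and at 7.44, 11.4 and 7.42 FPKM in IL-33+LM8 mice. Control mice were far below the others, and IL-33+LM8 replicate 2 was the nearest of its group to the IL-33 mice. The rise with IL-33 was 37.8-fold, with a log2 fold change of 5.26 (SE 0.37, edgeR, adjusted p = 4.5e-05). Against IL-33 mice the log2 fold change with LM8 was -0.91 (SE 0.18, edgeR, adjusted p = 0.011), and without IL-33+LM8 replicate 2 it was -1.14 and was called.

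*Pdcd1lg2* (ENSMUSG00000016498) encodes PD-L2, the PD-1 ligand found mainly on dendritic cells and macrophages. It was at 0.426, 0.126 and 0.190 FPKM in control mice, at 23.9, 22.1 and 23.6 FPKM in IL-33 mice and at 3.97, 5.09 and 4.06 FPKM in IL-33+LM8 mice. The groups were far apart, and the change was the largest of the 10 genes in both directions. It rose 93.9-fold with IL-33, a log2 fold change of 6.55 (SE 0.38, edgeR, adjusted p = 2.1e-05), above 99.5% of genes tested. With LM8 it fell to 0.188 of the IL-33 level, a log2 fold change of -2.40 (SE 0.12, edgeR, adjusted p = 7.1e-05), below all but 1.10% of genes. With each mouse left out the 2 values ranged from 6.23 to 7.16 and from -2.51 to -2.32.

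*Cd274* (ENSMUSG00000016496) encodes PD-L1, the ligand found also on epithelial and endothelial cells. Control mice held 5.15, 4.71 and 5.21 FPKM, IL-33 mice 10.5, 9.36 and 12.4 FPKM and IL-33+LM8 mice 10.6, 5.91 and 9.03 FPKM. The gene was the most abundant member in control lungs and rose the least, with IL-33+LM8 mice spanning most of the distance between the other groups. Its rise was close to that of *Ikzf2* (log2 fold change 1.13, SE 0.11). Without control replicate 3 their order reversed, at 1.12 for *Cd274* and 1.06 for *Ikzf2*. The rise with IL-33 was 2.14-fold, with a log2 fold change of 1.11 (SE 0.12, edgeR, adjusted p = 0.00032), and the call was lost without IL-33 replicate 3 (0.98). Between IL-33+LM8 and IL-33 mice the log2 fold change was -0.33 (SE 0.21, edgeR, adjusted p = 0.33).

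OX40, encoded by *Tnfrsf4* (ENSMUSG00000029075), sustains activated T cells. *Tnfrsf4* was at 2.05, 1.18 and 1.36 FPKM in control mice, at 5.40, 4.40 and 4.40 FPKM in IL-33 mice and at 2.98, 3.45 and 2.70 FPKM in IL-33+LM8 mice. The groups were in the same order as for *Tigit* and did not overlap. Its log2 fold change was 1.63 with IL-33 (SE 0.25, edgeR, adjusted p = 0.0018), and -0.62 between IL-33+LM8 and IL-33 mice (SE 0.16, edgeR, adjusted p = 0.035). That decrease depended on single mice. Its adjusted p (edgeR) stayed under 0.05 with IL-33+LM8 replicate 2 left out (0.034) and with no other mouse left out. The adjusted p was highest, at 0.12, without IL-33 replicate 1 or IL-33+LM8 replicate 3.

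*Tnfsf4* (ENSMUSG00000026700) encodes the OX40 ligand, which antigen-presenting cells and group 2 innate lymphoid cells can carry. It had only 4, 6 and 4 counts in control mice (0.0331, 0.050 and 0.0281 FPKM), so the control level and every fold against it were imprecise. IL-33 mice held 1.71, 1.16 and 1.03 FPKM, from 107 to 215 counts, and IL-33+LM8 mice 0.812, 2.38 and 1.63 FPKM, from 94 to 284 counts. Both challenged groups were far above control mice and overlapped each other. The log2 fold change with IL-33 was 5.10 (SE 0.41, edgeR, adjusted p = 7.9e-05). Between IL-33+LM8 and IL-33 mice it was 0.32 (SE 0.40, edgeR, adjusted p = 0.65), the only positive value among the 10 genes, and it was -0.07 without IL-33+LM8 replicate 2.

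GITR, encoded by *Tnfrsf18* (ENSMUSG00000041954), is a costimulatory receptor of regulatory and activated T cells. *Tnfrsf18* was at 4.89, 2.84 and 3.09 FPKM in control mice, at 8.84, 7.29 and 9.45 FPKM in IL-33 mice and at 7.26, 7.20 and 7.35 FPKM in IL-33+LM8 mice. The IL-33+LM8 mice were nearly equal to one another and overlapped the lower end of the IL-33 mice. The log2 fold change with IL-33 was 1.24 (SE 0.23, edgeR, adjusted p = 0.0046). It was -0.22 between IL-33+LM8 and IL-33 mice (SE 0.12, edgeR, adjusted p = 0.26).

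**Figure D2:**
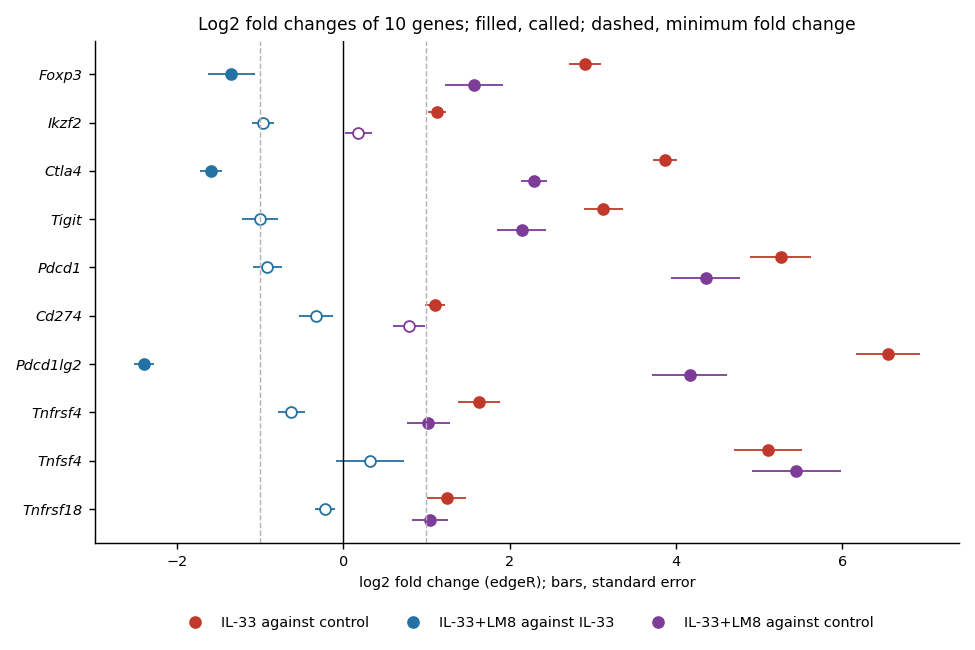
Log2 fold changes of the 10 genes (horizontal axis) in IL-33 against control, IL-33+LM8 against IL-33 and IL-33+LM8 against control mice, with bars for the standard error, filled points for called genes and dashed lines at the minimum fold change. IL-33 against control runs from 1.11 for Cd274 to 6.55 for Pdcd1lg2, and IL-33+LM8 against IL-33 from -2.40 for Pdcd1lg2 to 0.32 for Tnfsf4.

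Compared with control mice, 8 of the 10 genes were higher in IL-33+LM8 mice, where 5.20% of 21518 genes were called higher. By adjusted p alone it was 9 of 10, against 13.2% of genes (6 to 8 with each mouse left out), and in 9 of 10 the 3 IL-33+LM8 mice lay above all control mice, against 20.3% of genes. *Cd274* had an adjusted p of 0.027 with a log2 fold change of 0.79 (SE 0.19, edgeR). The largest log2 fold changes were those of *Tnfsf4* at 5.45 (SE 0.54, edgeR, adjusted p = 0.00074), *Pdcd1* at 4.35 (SE 0.42, edgeR, adjusted p = 0.00066) and *Pdcd1lg2* at 4.16 (SE 0.45, edgeR, adjusted p = 0.0011). *Ctla4* followed at 2.29 and *Tigit* at 2.14, with SEs of 0.15 and 0.29. Those of *Foxp3* at 1.57 (SE 0.35), *Tnfrsf18* at 1.04 (SE 0.22) and *Tnfrsf4* at 1.02 (SE 0.26) were less firm, and without control replicate 3 none of these 3 genes was called (adjusted p = 0.052 for *Foxp3*, and log2 fold changes of 0.94 and 0.94 for the other two, edgeR). The call of *Foxp3* was also lost without control replicate 1 or IL-33+LM8 replicate 3 (log2 fold changes 1.48 and 1.57), that of *Tnfrsf18* without control replicate 2 (0.89), and that of *Tnfrsf4* without control replicate 2 (0.86) or any of IL-33+LM8 replicates 1, 2 and 3 (1.03, 0.90 and 1.10). The same control mice served both comparisons with controls.

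The order of the 10 genes by mean FPKM changed between groups. In control mice *Cd274* led at 5.02 ± 0.27 FPKM and *Tnfrsf18* followed at 3.61 ± 1.12 FPKM (SD, n = 3 each), with overlapping mice, then *Tnfrsf4* at 1.53 ± 0.46 FPKM. Below them *Tigit*, *Ikzf2*, *Ctla4*, *Pdcd1*, *Foxp3* and *Pdcd1lg2* each overlapped the next in order, from 0.694 down to 0.247 FPKM, and *Tnfsf4* was lowest at 0.0371 FPKM. In IL-33 mice *Pdcd1lg2* led at 23.2 ± 0.97 FPKM, apart from *Pdcd1* at 16.6 ± 0.76 FPKM, which was apart from *Cd274* at 10.7 ± 1.52 FPKM (SD, n = 3 each). *Cd274*, *Ctla4* and *Tnfrsf18* overlapped in order, as did *Tigit* and *Tnfrsf4*, and *Tnfsf4* and *Ikzf2* at the bottom. In IL-33+LM8 mice *Pdcd1* and *Cd274* led with overlapping mice at 8.74 ± 2.27 and 8.50 ± 2.36 FPKM, *Cd274* overlapped *Tnfrsf18* at 7.27 ± 0.077 FPKM, and *Pdcd1lg2* came next at 4.37 ± 0.62 FPKM (SD, n = 3 each). *Foxp3* and *Ikzf2* closed the order at 0.777 and 0.657 FPKM, overlapping.

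In bulk lung RNA, fewer cells of a type and less RNA per cell cannot be told apart. The members that T cells carry were therefore also divided by the geometric mean of *Cd3e*, *Cd3d* and *Cd3g*, subunits of the T cell receptor complex. That mean was 1.62, 1.86 and 1.84 FPKM in control mice, 2.71, 2.46 and 2.74 FPKM in IL-33 mice and 2.58, 1.79 and 2.17 FPKM in IL-33+LM8 mice, lowest among challenged mice in IL-33+LM8 replicate 2. IL-33 mice were above control mice in this denominator too. Except for *Ikzf2*, that rise was smaller on average than the rise of each member divided by it.

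Relative to Cd3, 6 of the 7 genes were higher in every IL-33 mouse than in every control mouse, each at p = 0.1 in a two-sided exact permutation test, the smallest that 3 against 3 allow. The difference in mean log2 ratio was 4.81 for *Pdcd1*, 3.29 for *Ctla4*, 2.56 for *Tigit*, 2.35 for *Foxp3*, 1.09 for *Tnfrsf4* and 0.55 for *Ikzf2*. *Tnfrsf18* differed by 0.70, with control replicate 1 (ratio 3.01) inside the range of the IL-33 mice (2.97 to 3.44) and an exact permutation p of 0.2. In IL-33+LM8 mice the ratios of *Ctla4*, *Foxp3*, *Tigit* and *Ikzf2* all lay below those of IL-33 mice, with differences of -1.31, -1.15, -0.74 and -0.70 and an exact permutation p of 0.1 each. For *Foxp3* the ratios were 0.736, 0.843 and 0.692 in IL-33 mice and 0.426, 0.257 and 0.356 in IL-33+LM8 mice. For *Ikzf2* they were 0.469, 0.523 and 0.481 in IL-33 mice and 0.300, 0.303 and 0.303 in IL-33+LM8 mice, inside the control range of 0.296 to 0.402. The ratios of *Pdcd1*, *Tnfrsf4* and *Tnfrsf18* overlapped between the challenged groups, with differences of -0.67, -0.35 and 0.07 and exact permutation p of 0.3, 0.3 and 0.8. For *Pdcd1* the overlap came from IL-33+LM8 replicate 2, whose ratio of 6.35 lay within the 6.12 to 6.46 of IL-33 mice while the other two were 2.88 and 3.42. Cd3 does not mark group 2 innate lymphoid cells or other carriers of these receptors.

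**Figure D3:**
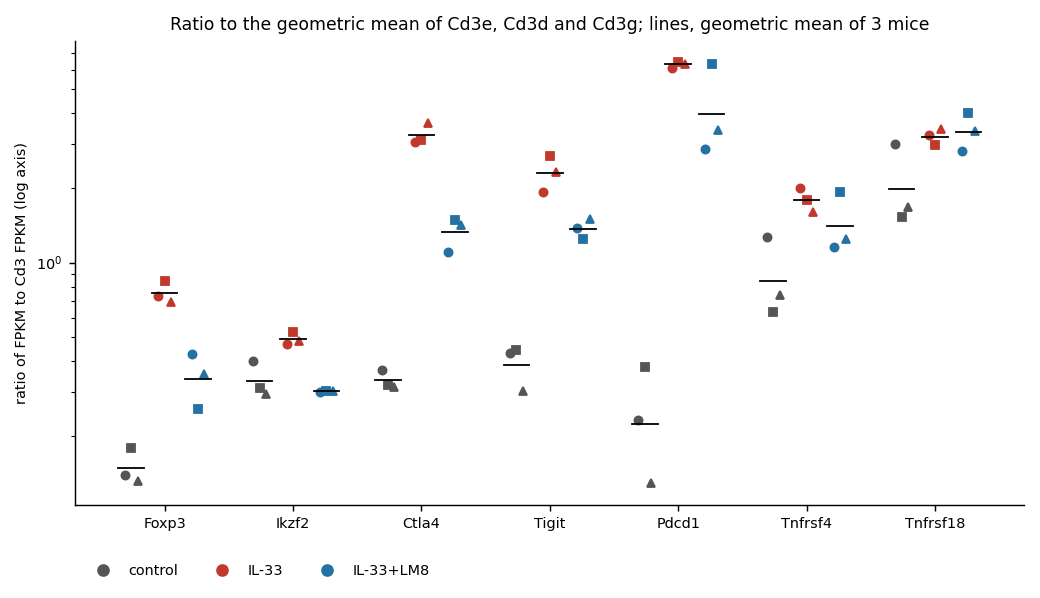
Ratio of the FPKM of 7 genes to the geometric mean FPKM of Cd3e, Cd3d and Cd3g in each mouse (vertical log axis), with lines for the geometric mean of 3 mice and circle, square and triangle for replicates 1, 2 and 3. Control and IL-33 mice overlap only for Tnfrsf18, and IL-33 and IL-33+LM8 mice overlap for Pdcd1, Tnfrsf4 and Tnfrsf18.

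Ratios between members, or to *Cd28*, were chosen after the values had been seen, and 6 were computed. *Pdcd1lg2* was 0.083, 0.027 and 0.036 of *Cd274* in control mice, 2.28, 2.36 and 1.91 times *Cd274* in IL-33 mice, and 0.376, 0.861 and 0.450 of it in IL-33+LM8 mice. Thus PD-L2 mRNA exceeded PD-L1 mRNA per length in IL-33 mice only. The mean log2 ratio differed by 5.65 with IL-33 and by -2.05 between IL-33+LM8 and IL-33 mice, both at an exact permutation p of 0.1. *Ctla4* was 0.504, 0.508 and 0.561 of the costimulatory receptor gene *Cd28* in control mice, 6.13, 6.38 and 7.37 times *Cd28* in IL-33 mice, and 1.83, 1.87 and 2.66 times in IL-33+LM8 mice. *Cd28* itself had a log2 fold change of 0.22 with IL-33 (SE 0.13, edgeR, adjusted p = 0.22). *Tnfsf4* was 0.016, 0.042 and 0.021 of *Tnfrsf4* in control mice, 0.316, 0.264 and 0.233 of it in IL-33 mice and 0.273, 0.690 and 0.603 of it in IL-33+LM8 mice. The challenged groups overlapped there, and the mean log2 ratio differed between them by 0.85 (exact permutation p = 0.2). The ratio of *Pdcd1* to *Foxp3* was 0.980 to 2.11 in control mice, 7.66 to 9.16 in IL-33 mice and 6.77 to 24.7 in IL-33+LM8 mice, the highest again in replicate 2. Other ratios moved less. That of *Ctla4* to *Foxp3* differed by 0.94 in mean log2 with IL-33 (exact permutation p = 0.1) and by -0.15 between the challenged groups (exact permutation p = 0.8). That of *Tnfrsf18* to *Tnfrsf4* differed by -0.39 with IL-33, 0.42 between the challenged groups and 0.03 between IL-33+LM8 and control mice (exact permutation p = 0.1, 0.2 and 0.8).

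**Figure D4:**
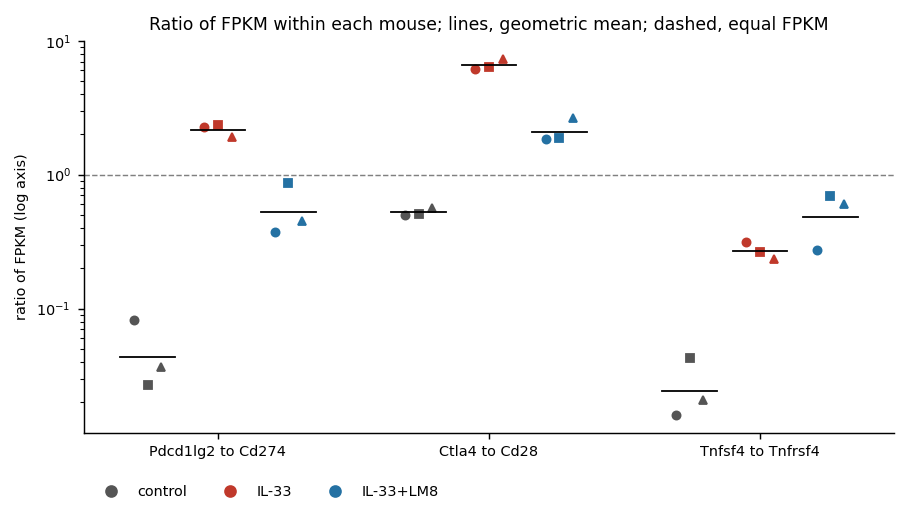
Ratio of FPKM within each mouse (vertical log axis) for Pdcd1lg2 to Cd274, Ctla4 to Cd28 and Tnfsf4 to Tnfrsf4, with lines for the geometric mean of 3 mice, a dashed line at equal FPKM, and circle, square and triangle for replicates 1, 2 and 3. Pdcd1lg2 lies above Cd274 in the 3 IL-33 mice and in no other mouse.

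IL-33+LM8 replicate 2 differed from its group in a direction that depended on the gene. Within the group it had the lowest *Foxp3*, *Ikzf2*, *Ctla4*, *Tigit*, *Cd274* and *Tnfrsf18*, and the highest *Pdcd1*, *Pdcd1lg2*, *Tnfrsf4* and *Tnfsf4*. Without it, 4 members were called lower between IL-33+LM8 and IL-33 mice and 7 higher between IL-33+LM8 and control mice.

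Other genes of regulatory T cells were read from a list of 18, all tested, of which 9 rose with IL-33 and none fell. For this list and those below, 9.94% of all genes tested were called higher with IL-33. Between IL-33+LM8 and IL-33 mice 3.48% were called lower, and 10.3% were lower by adjusted p alone. By adjusted p alone, 4848 of 21519 genes were higher with IL-33, and 2090 of 21520 were higher in IL-33+LM8 than in IL-33 mice. The list's median log2 fold change was 1.17, against -0.01 over all genes. *Ccr8*, a chemokine receptor of tissue regulatory T cells and Th2 cells, had the steepest rise. It went from 0.494 ± 0.26 to 19.1 ± 2.43 FPKM (SD, n = 3 each), and its log2 fold change was 5.28 (SE 0.42, edgeR, adjusted p = 8.3e-05). With LM8 it was the only one of the 18 called lower, at 8.44 ± 0.83 FPKM (SD, n = 3) with a log2 fold change of -1.17 (SE 0.13, edgeR, adjusted p = 0.0010). *Capg*, encoding an actin-capping protein, rose by 2.48 on the log2 scale with IL-33 (SE 0.08), and its log2 fold change with LM8 was -0.93 (SE 0.09, edgeR, adjusted p = 0.00055), under the minimum. By adjusted p alone, 5 of the 18 were lower and 1 was higher in IL-33+LM8 than in IL-33 mice. A single gene of 18 called lower is near the share over all genes. *Entpd1*, encoding the ectonucleotidase CD39, had a log2 fold change of -0.03 (SE 0.07, edgeR, adjusted p = 0.79). *Nrp1*, encoding neuropilin-1, which endothelial cells carry as well, had one of -0.82 (SE 0.07, edgeR, adjusted p = 0.00012), under the minimum. *Il2ra*, encoding the high-affinity IL-2 receptor chain CD25 and named here after its values were seen, rose by 3.59 (SE 0.15) and was not called between IL-33+LM8 and IL-33 mice (-0.20, SE 0.19, edgeR, adjusted p = 0.53).

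Among 18 other costimulatory and co-inhibitory receptors, all tested, 8 rose with IL-33 and none fell, with a median log2 fold change of 0.94. With LM8, *Icos*, *Lag3* and *Cd200r1* were called lower than in IL-33 mice, and by adjusted p alone 5 of the 18 were lower and 1 higher. *Icos*, a CD28 family costimulatory receptor that lies 62094 bases from *Ctla4* in the table, went from 0.768 ± 0.052 to 6.76 ± 0.83 and then 3.29 ± 0.13 FPKM (SD, n = 3 each), with log2 fold changes of 3.14 (SE 0.14) and -1.03 (SE 0.11, edgeR, adjusted p = 0.0010). *Lag3*, encoding an inhibitory receptor for MHC class II, had log2 fold changes of 2.27 (SE 0.32) and -1.26 (SE 0.16), and *Cd200r1*, encoding the receptor for CD200, of 2.62 (SE 0.14) and -1.01 (SE 0.10). *Tnfrsf9*, encoding the costimulatory receptor 4-1BB, rose from 0.450 ± 0.11 to 7.97 ± 0.78 FPKM (SD, n = 3 each) and its mean was 10.6 ± 3.24 FPKM (SD, n = 3) with LM8, with a log2 fold change between the challenged groups of 0.42 (SE 0.22, edgeR, adjusted p = 0.24). *Btla* had a log2 fold change of 0.96 with IL-33 (SE 0.13, edgeR, adjusted p = 0.0011), a rise just under the minimum. *Tnfrsf14*, encoding the BTLA ligand HVEM, had one of -0.06 (SE 0.11, edgeR, adjusted p = 0.72).

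Of 18 ligands of these receptors, 17 were tested and 5 rose with IL-33, with a median log2 fold change of 0.76. *Cd70* was left out by the filter and had no count in any control mouse. *Cd276*, encoding B7-H3, rose from 1.67 ± 0.12 to 3.47 ± 0.15 FPKM (SD, n = 3 each) and was back at 1.56 ± 0.20 FPKM (SD, n = 3) with LM8, with log2 fold changes of 1.06 (SE 0.11) and -1.14 (SE 0.12, edgeR, adjusted p = 0.00096). It was the only ligand of the list called lower with LM8, a count near the share over all genes, and by adjusted p alone 3 were lower and 1 higher. The most abundant ligands moved by less than the minimum with IL-33: *Lgals9*, encoding galectin-9, had a log2 fold change of 0.38 (SE 0.10), *Vsir*, encoding VISTA, of 0.31 (SE 0.07) and *Cd200* of -0.32 (SE 0.09). *Cd80* and *Cd86*, encoding the ligands shared by CD28 and CTLA-4 and named here after their values were seen, rose by 2.31 (SE 0.18) and 2.05 (SE 0.15).

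**Figure D5:**
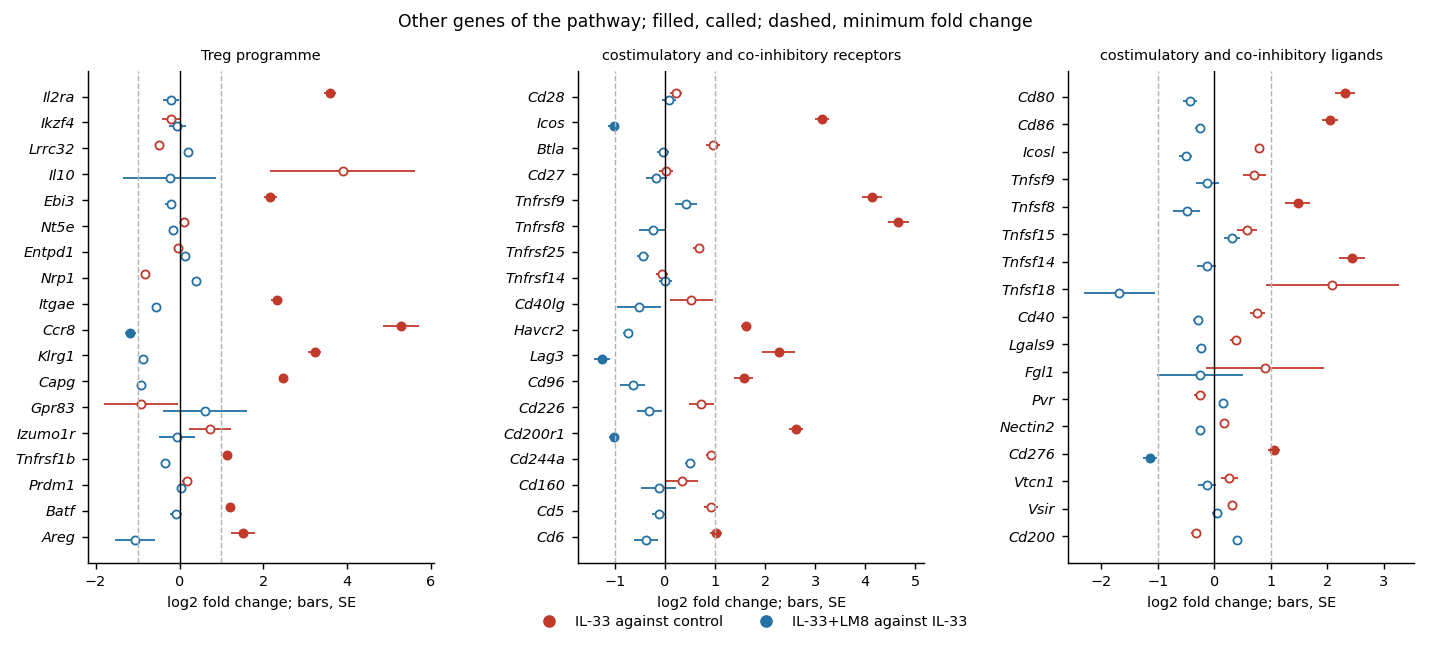
Log2 fold changes (horizontal axes) of 18 other regulatory T cell genes, 18 receptors and the 17 ligands tested, in IL-33 against control and IL-33+LM8 against IL-33 mice, with bars for the standard error, filled points for called genes and dashed lines at the minimum fold change. With IL-33, 9, 8 and 5 genes of the panels were called higher, and between IL-33+LM8 and IL-33 mice 1, 3 and 1 were called lower. Over all genes tested the shares were 9.94% and 3.48%.

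Markers of the cells that can carry these genes moved with the groups, and their part in the results above was not tested. Of 12 T cell genes, 3 (*Trbc1*, *Trbc2* and *Zap70*) were called higher with IL-33. By adjusted p alone 8 were higher, against 4848 of 21519 genes tested. None of the 12 was called between the challenged groups, where 2 were lower by adjusted p alone. Their summed level was 55.2 to 59.1 FPKM in control mice, 93.3 to 111.9 FPKM in IL-33 mice and 79.7 to 91.8 FPKM in IL-33+LM8 mice. The constant region genes *Trac*, *Trbc1* and *Trbc2* had log2 fold changes of 0.66 (SE 0.13), 1.297 (SE 0.10) and 1.03 (SE 0.15) with IL-33. Of 10 genes of group 2 innate lymphoid cells and Th2 cells, 7 rose with IL-33, and with LM8 3 (*Il1rl1*, *Il17rb* and *Bcl11b*) were called lower and 6 were lower by adjusted p alone, with sums of 11.6 to 12.3, 58.0 to 69.6 and 28.6 to 29.8 FPKM in the control, IL-33 and IL-33+LM8 groups. *Il1rl1*, the IL-33 receptor gene, had log2 fold changes of 3.90 (SE 0.12) and -1.37 (SE 0.11), and *Il17rb*, the IL-25 receptor gene, of 5.33 (SE 0.16) and -1.72 (SE 0.07). *Rora* had one of -0.04 with IL-33 (SE 0.07).

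Of 12 dendritic cell and macrophage genes, 8 rose and *Marco* fell with IL-33, with sums of 104.2 to 110.5, 405.3 to 439.3 and 207.3 to 242.3 FPKM. *Itgax*, *Batf3*, *Fscn1* and *Cd68* then fell with LM8 and *Marco* rose, and by adjusted p alone 7 were lower and 2 higher. *Itgax*, encoding CD11c, had log2 fold changes of 3.07 (SE 0.10) and -1.27 (SE 0.07), *Cd68* of 2.43 (SE 0.12) and -1.34 (SE 0.09), and *Ccl22*, a chemokine gene, of 4.12 (SE 0.14) and -0.65 (SE 0.14). All 6 proliferation genes rose with IL-33, and with LM8 4 were called lower and all 6 were lower by adjusted p alone. *Mki67* was at 3.53 ± 1.04, 30.7 ± 2.01 and 11.9 ± 1.00 FPKM (SD, n = 3 each).

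Marker genes of other cells moved as well. Of 8 eosinophil genes, 7 rose with IL-33 and all 8 fell with LM8, with sums of 101.7 to 114.6, 590.8 to 647.0 and 142.5 to 177.8 FPKM. *Ear2* made up most of each sum, at 83.2 ± 4.59, 552.6 ± 31.4 and 144.9 ± 17.3 FPKM (SD, n = 3 each). The remaining gene, *Ear1*, was lower with IL-33 by less than the minimum (log2 fold change -0.47, SE 0.12, edgeR, adjusted p = 0.018). *Epx*, encoding eosinophil peroxidase, had no count in any control mouse. Of 8 neutrophil genes, 6 were called higher with IL-33, and 6 were called higher in IL-33+LM8 than in IL-33 mice (8 by adjusted p alone), with sums of 26.7 to 33.5, 188.9 to 211.5 and 875.0 to 1024.7 FPKM. All 6 B cell genes rose with IL-33. With LM8 none passed the minimum but all 6 were lower by adjusted p alone, with a median log2 fold change of -0.85, and their sums were 36.5 to 46.4, 127.6 to 165.7 and 82.8 to 96.4 FPKM. Of 6 endothelial genes 3 fell with IL-33 and of 8 lung epithelial genes 2 fell, *Sftpc* and *Scgb1a1*. With LM8 none of either list passed the minimum, but by adjusted p alone all 6 endothelial and 4 epithelial genes were higher than in IL-33 mice. Over all genes tested, 5.83% were called lower with IL-33. Between IL-33+LM8 and IL-33 mice 1.32% were called higher, and 2090 of 21520 genes were higher by adjusted p alone. The epithelial list held the highest levels of all, with *Scgb1a1* at 21499.5 ± 1123 FPKM (SD, n = 3) in control mice, which matched the labelled tissue. No marker list had a gene at 0 in every IL-33 mouse.

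The genes whose levels followed *Foxp3* most closely over the 9 mice, among 14674 with a mean of at least 1 FPKM, were *Ciita*, *Dennd1c*, *Ikzf3*, *Abcg3* and *Cd300c2*, with Pearson's r of log2(FPKM + 1) from 0.990 to 0.998. For *Cd274* they were *Oasl2*, *Gm21188*, *Cyp4f16*, *Niban1* and a gene listed only by its identifier, ENSMUSG00000121042, with r from 0.976 to 0.991. The mice fall into 3 groups that share a treatment, so these values describe likeness across groups and carry no test. *Ciita*, encoding the master regulator of MHC class II genes, was at 4.18 ± 0.053, 9.96 ± 0.29 and 5.81 ± 1.17 FPKM in control, IL-33 and IL-33+LM8 mice, and *Oasl2*, an interferon-induced gene, was at 8.37 ± 0.35, 13.9 ± 1.07 and 11.5 ± 2.22 FPKM (SD, n = 3 each).

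Among the members, 2 pairs are close neighbours in the genome and the others lie apart. Positions are given as in the table, whose build is not named and whose coordinates differ from GRCm38. *Cd274* (chr19:29344855-29365495) and *Pdcd1lg2* (chr19:29388319-29448561) are neighbours, 22823 bases apart with no gene between them. *Tnfrsf4* (chr4:156098300-156101069) and *Tnfrsf18* (chr4:156110621-156113352) are 9551 bases apart with 2 predicted genes between. *Ctla4* (chr1:60926159-60954991) lies with *Icos* and *Cd28*. The neighbours moved by unequal amounts, 1.11 and 6.55 on the log2 scale for the PD-1 ligands, and 1.63 and 1.24 for the TNF receptors, with IL-33. The others are *Foxp3* (chrX:7439883-7461482), *Ikzf2* (chr1:69570373-69725045), *Pdcd1* (chr1:93966027-93980278), *Tnfsf4* (chr1:161222980-161245981) and *Tigit* (chr16:43469230-43484509).

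Whether counting used strand is not given in the sources used here, so reads of a member and of an overlapping gene may not have been told apart. *Tnfrsf4*, *Tnfsf4*, *Pdcd1* and *Tigit* overlapped no other gene. *Foxp3* overlapped *Ccdc22*, *Flicr*, *Ppp1r3f* and *Gm36995*, none of which was called, with log2 fold changes of 0.06 to 0.29 with IL-33. *Pdcd1lg2* overlapped the antisense gene *A930007I19Rik*, which moved with it: its counts were 174 to 291 in control, 482 to 653 in IL-33 and 231 to 387 in IL-33+LM8 mice, with log2 fold changes of 1.48 (edgeR, adjusted p = 0.0017) and -0.99 (edgeR, adjusted p = 0.013). *Pdcd1lg2* itself had 16 to 55, 2605 to 3210 and 487 to 750 counts in the same groups. *Cd274*, *Tnfrsf18* and *Ctla4* each overlapped 1 other gene, none of which was called. *Ikzf2* overlapped 2 genes that had 8 counts or fewer in every mouse.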

How the data were processed

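RNA-seq of 9 mouse lungs (paired ends, Illumina NovaSeq) was processed by the authors' sequencing company. The authors deposited, in 1 table, the raw read count of every gene in every mouse, and beside it the FPKM. The submitters' processing notes name HISAT2 2.0, StringTie 1.3.0, Bowtie 0.12.2 and mm10 without roles. The counter, annotation and strand setting are not given in the sources used here. How reads shared between genes were counted could change single values. The columns of 1 table were assigned to mice by their titles.

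The study's methods name no test for the RNA-seq counts. Comparisons were fitted separately, on 6 mice each, with edgeR 4.0.16 (R 4.3.3, quasi-likelihood test, TMM), over genes with a mean count of at least 10 in the 9 mice, with Benjamini-Hochberg adjustment, and a call needed an adjusted p under 0.05 and a log2 fold change of 1 or more in size. The SE is the log2 fold change divided by the square root of F. Ratios of FPKM were compared by two-sided exact permutation tests (scipy 1.17.1). The script was tested on simulated data. Alternatives were DESeq2 1.42.0, limma 3.58.1 on log2(FPKM + 1) and log2(FPKM + 0.1), other filters and size factors, no minimum fold change, a replicate block, 1 fit of the 9 mice and leaving out each mouse.

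The members and the 12 lists (130 genes, none in 2 lists) were chosen with earlier results of these data known. The genes named are the members, the 3 most abundant of each list, those called in both IL-33 against control and IL-33+LM8 against IL-33, and the 5 most like *Foxp3* and *Cd274*; not every such gene of the marker lists is printed, and other names are marked in the text. Within groups, libraries differed by 21.9 times or more what sampling alone gives (chi-square per gene), so none was a copy. Deviations of same-numbered mice correlated at -0.41 to 0.65, over 0.1 in 5 of 9 pairs. Between control and IL-33+LM8 mice all 3 pairs were over 0.1 (0.30, 0.31 and 0.65), and the labels give no shared batch. Differently numbered mice correlated over a similar range, -0.48 to 0.65, so same-numbered mice did not stand out. Among them were control replicate 3 with IL-33 replicate 1 (0.63) and IL-33 replicate 1 with IL-33+LM8 replicate 3 (0.65). The replicate block follows the numbers and does not cover such likeness, whose source was not tested. A floor of 3 counts served to tally list genes at or under it in every mouse of a group, and no fold change or ratio printed here used it. Motifs were searched in 250 bases ahead of RefSeq starts.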

Additional observations from a re-analysis of the deposited data

How the results depend on the processing

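Of 420 log2 fold changes of the 10 genes under alternatives, in 391 neither the direction nor the call changed, in 21 a call was lost, in 7 a call was made anew and in 1 the sign changed (*Tnfsf4*, IL-33+LM8 against IL-33, -0.069 without IL-33+LM8 replicate 2, range -0.069 to 0.64 with each mouse left out). The cause was not tested. With each mouse left out, 9 to 10 members passed in IL-33 against control, 2 to 5 in IL-33+LM8 against IL-33 and 5 to 7 in IL-33+LM8 against control, compared with 10, 3 and 8. The fewest were called without IL-33 replicate 3 for the first 2 comparisons and without control replicate 3 for the last, and 5 were called without IL-33+LM8 replicate 1. Without a minimum fold change the comparison of IL-33+LM8 with IL-33 called 7 members and 4309 genes, and 9412 and 4843 genes in the comparisons of IL-33 and of IL-33+LM8 with control, where the main numbers of genes were 1033, 3394 and 1478. The split of higher and lower genes was then 4848 and 4564, 2090 and 2219, and 2834 and 2009, in place of 2140 and 1254, 284 and 749, and 1119 and 359, in the order IL-33 against control, IL-33+LM8 against IL-33, IL-33+LM8 against control. On log2(FPKM + 1), which compresses low genes, limma called 1739, 437 and 587 genes in that order, and 8, 2 and 5 members. With the replicate block 10, 3 and 8 members and 3103, 837 and 1716 genes were called, and no call of a member with the minimum fold change was altered. By adjusted p alone, 7 members were lower in IL-33+LM8 than in IL-33 mice, 5 of them with the replicate block and in 1 fit of 9 mice, and 6 with no filter on low counts. Of the other genes of the lists, 31 were called in that comparison and 71 without a minimum fold change, and 50 and 79 in IL-33+LM8 against control. DESeq2 called the same numbers of members, 10, 3 and 8. The difference in log2 ratio of *Ctla4* with IL-33 was 3.47 over *Cd3e* alone, and for *Ikzf2* it was 0.74 with IL-33 and -0.58 between the challenged groups over *Cd3e*, and -0.63 over *Cd4*. Control counts of *Tnfsf4*, at most 6, limit every fold against control for that gene.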
